A study of Homo sapiens with 4 samples.

Results

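The genes described here are 39 SNAREs and membrane fusion factors, taken by gene symbol from a list of the family. All 39 were found among the 12191 genes listed for SiHa and all 39 among the 12037 listed for MS751, and they are part of the 11112 genes listed for both. SiHa and MS751 are established lines from squamous cell carcinoma of the uterine cervix. The study sequenced total RNA from each line on day 2 after lipid transfection of siDDX24-1, a single siRNA against the RNA helicase DDX24, or of siControl. The 4 groups are SiHa with siDDX24-1, SiHa with siControl, MS751 with siDDX24-1 and MS751 with siControl, each with 1 library, and the labels give no other genetic change and no second siRNA. A fold is therefore a comparison of 2 libraries with no replicate check. Its 95% interval, given as "between" its bounds, covers counting error only, and PCR copies, which carry no molecular identifier here, can make it too narrow even for that.

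SNARE proteins drive the fusion of transport vesicles with their target membranes. A Qa, a Qb and a Qc helix from one membrane and an R helix from the other zip into a bundle that pulls the membranes together, and a Qbc protein such as SNAP23 supplies both middle helices. SM proteins hold the syntaxins in shape for assembly, and the ATPase NSF with its SNAP adaptors takes spent bundles apart so that the SNAREs can be used again. Different sets, with some members shared, serve the steps between the endoplasmic reticulum, the Golgi, endosomes, autophagosomes and the cell surface. RNA levels of these genes do not measure transport.

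DDX24 itself had 575 counts in SiHa siDDX24-1 and 3464 counts in SiHa siControl, a level 6.55-fold lower, and 993 counts in MS751 siDDX24-1 and 2072 counts in MS751 siControl, a level 2.30-fold lower. Total counts per library ran from 13160487 to 20117442. The tables list only genes above about 1 CPM (counts scaled to library size) in both libraries of a line, so a gene that is silent in either library has no value here. Of 8 squamous epithelial markers, 5 were listed for SiHa and 2 for MS751, and KRT5, KRT14 and TP63 were listed for neither line. Of 3 leukocyte markers, PTPRC and CD3E were listed for neither line and CD68 for both, at 7.26 CPM in SiHa siDDX24-1 and 7.46 CPM in SiHa siControl and at 6.10 CPM in MS751 siDDX24-1 and 3.78 CPM in MS751 siControl. Of 4 fibroblast markers, 2 were listed for each line, with a summed level of 8.63 CPM in SiHa siDDX24-1 and 18.2 CPM in SiHa siControl, and of 27.0 CPM in MS751 siDDX24-1 and 88.6 CPM in MS751 siControl, most of it COL1A1. Of 3 endothelial markers, 1 was listed for SiHa and 0 for MS751. The part of these levels in the results was not tested. In bulk RNA, fewer cells of a kind and less RNA per cell cannot be told apart.

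With siDDX24-1, the folds of the family ran in both directions in each line. In SiHa the trans-Golgi and endosomal syntaxins STX6 and STX16 were at least 2-fold higher and the synaptobrevin VAMP1 was at least 2-fold lower. In MS751 no member was at least 2-fold higher, and STX6, VAMP2 and VAMP1 were at least 2-fold lower. STX6 and STX16 thus pointed in opposite directions in the lines, while VAMP1 was lower in both. For STX6 this direction was already known when the genes were chosen, so its values are a description.

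The member counts stand against the whole tables as follows. In SiHa 2 of 39 members (5.13%) were at least 2-fold higher, against 1.46% of all 12189 genes compared, and 1 of 39 (2.56%) was at least 2-fold lower, against 3.05% of all genes. In MS751 0 of 39 were at least 2-fold higher, against 3.74% of all 12036 genes compared, and 3 of 39 (7.69%) were at least 2-fold lower, against 8.55% of all genes. The lower counts are close to the background in both lines. STX6, whose directions were known when the genes were chosen, is among the 2 higher in SiHa and the 3 lower in MS751. Those shares are therefore a description. Folds above 0 were found for 26 members in SiHa (66.7%, against 49.6% of all genes) and for 23 members in MS751 (59%, against 50.0% of all genes). Of the 26 in SiHa, 6 are below 0 when scaled by library totals. That scaling also moves the SiHa median over all genes to -0.065, so the share of 49.6% does not apply to it.

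The median log2 fold of the members was 0.11 in SiHa, against -0.0041 over all genes, and 0.079 in MS751, against 0.00081 over all genes. The mean over the members was 0.14 in SiHa and -0.034 in MS751, so in MS751 the median and the mean differ in sign. The summed level of the 39 genes was 2069 CPM in SiHa siDDX24-1 and 1807 CPM in SiHa siControl. It was 1947 CPM in MS751 siDDX24-1 and 2012 CPM in MS751 siControl. At 1.5-fold, 5 members were higher and 2 lower in SiHa, where 4.65% and 10.0% of all genes were. In MS751 7 members were higher and 9 lower at 1.5-fold, where 13.7% and 18.4% of all genes were. STX6 is again among the 5 higher in SiHa and the 9 lower in MS751.

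**Figure D1:**
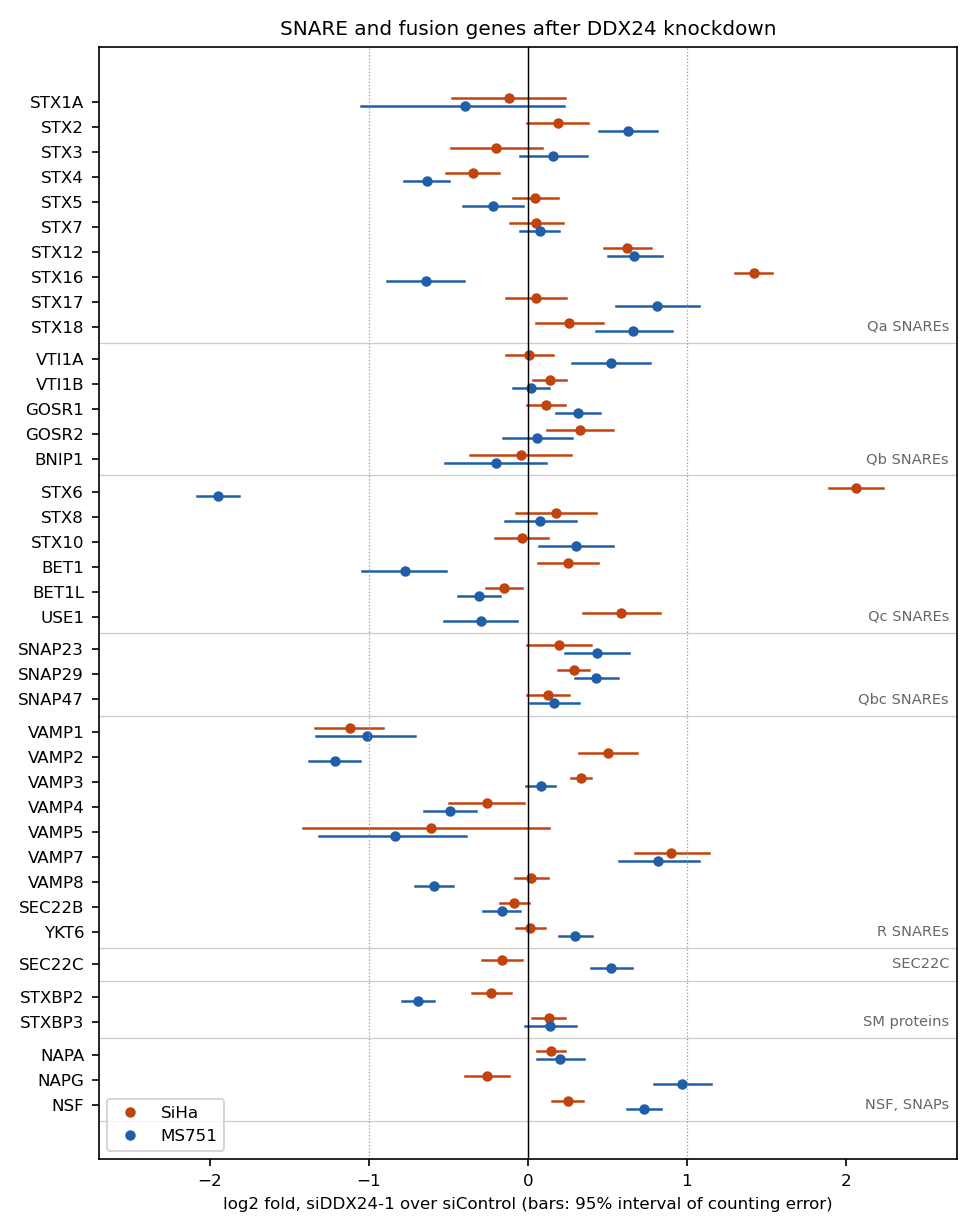
Log2 fold, siDDX24-1 over siControl, of the 39 genes (rows, grouped by their part in the SNARE bundle) in SiHa and in MS751. Points are the fold from 1 library per group, bars the 95% interval of counting error and dotted lines 2-fold; STX6 lies at 2.06 in SiHa and -1.95 in MS751, while VAMP1 lies below -1 in both.

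The promoters of the 4 genes past 2-fold in either line show the DNA next to their RefSeq start sites. They are RefSeq sequences on GRCh38.p14, from 250 bases before to 50 bases after the annotated start, written in the direction of transcription. Capitals mark matches, on either strand, to 5 motifs that were searched for, which are the E-box CACGTG, the CCAAT box, the GC box GGGCGG, the cAMP response element TGACGTCA and the AP-1 site TGAGTCA. None of the motifs is contained in another, and overlapping matches were each counted. STX6 is at chr1:181022821-181023120 on the minus strand, STX16 at chr20:58651033-58651332 on the plus strand, VAMP1 at chr12:6470628-6470927 on the minus strand and VAMP2 at chr17:8162827-8163126 on the minus strand. The STX6, VAMP1 and VAMP2 windows lie wholly within the GENCODE spans of those genes. The RefSeq starts used for them are therefore not the outermost GENCODE starts.
STX6: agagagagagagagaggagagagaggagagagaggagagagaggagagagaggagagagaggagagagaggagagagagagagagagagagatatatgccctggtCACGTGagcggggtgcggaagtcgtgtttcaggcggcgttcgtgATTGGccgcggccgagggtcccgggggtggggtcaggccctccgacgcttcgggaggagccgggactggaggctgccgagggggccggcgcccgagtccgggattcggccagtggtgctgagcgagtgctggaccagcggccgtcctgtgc
STX16: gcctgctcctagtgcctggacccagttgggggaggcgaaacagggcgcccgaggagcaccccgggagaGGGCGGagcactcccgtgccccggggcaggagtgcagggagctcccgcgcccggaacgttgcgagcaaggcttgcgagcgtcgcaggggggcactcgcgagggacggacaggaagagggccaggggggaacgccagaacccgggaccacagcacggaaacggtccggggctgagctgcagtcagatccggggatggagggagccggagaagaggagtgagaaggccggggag
VAMP1: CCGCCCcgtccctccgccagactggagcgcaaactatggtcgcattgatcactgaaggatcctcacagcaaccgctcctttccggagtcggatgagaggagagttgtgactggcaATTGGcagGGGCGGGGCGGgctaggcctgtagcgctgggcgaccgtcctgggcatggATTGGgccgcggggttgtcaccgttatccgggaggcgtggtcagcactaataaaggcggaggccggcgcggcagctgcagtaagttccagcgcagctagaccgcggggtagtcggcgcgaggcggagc
VAMP2: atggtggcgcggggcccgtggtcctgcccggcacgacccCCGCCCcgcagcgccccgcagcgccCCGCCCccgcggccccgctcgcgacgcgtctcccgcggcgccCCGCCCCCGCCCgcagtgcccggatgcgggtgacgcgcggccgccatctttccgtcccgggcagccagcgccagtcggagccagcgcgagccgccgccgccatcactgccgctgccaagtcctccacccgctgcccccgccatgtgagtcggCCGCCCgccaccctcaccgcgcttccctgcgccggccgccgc
The STX6 window holds 1 E-box, which starts 145 bases before the RefSeq start site, and 1 CCAAT box, but no GC box. STX16 holds 1 GC box, VAMP1 holds 3 GC boxes and 2 CCAAT boxes, and VAMP2 holds 5 GC boxes. The VAMP2 window is 81.7% G and C and the STX6 window 66.0%. RefSeq windows were matched for 36 of the 39 genes, all but STX17, USE1 and BET1L. An E-box was in 7 of the 36 (STX2, STX6, STXBP2, SNAP29, GOSR2, BNIP1 and NAPA), a share of 19.4%, against 7.26% of all 35116 windows. The GC box was in 26 of 36 (72.2%, against 45%), the CCAAT box in 11 of 36 (30.6%, against 34.6%), the cAMP response element in 2 of 36 (5.56%, against 1.85%) and the AP-1 site in 0 of 36, against 4.95%. The 35116 windows are all those of the reference and were not limited to genes listed for these lines, as the members are. The shares thus compare unlike sets, and no difference between them was tested. The folds of the 7 genes with an E-box ran in different directions. In SiHa their log2 folds ran from -0.23 for STXBP2 to 2.06 for STX6. In MS751 they ran from -1.95 for STX6 to 0.63 for STX2, with STXBP2 at -0.69. A match is a stretch of letters, not a measured binding site.

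STX6 and STX16 belong to one fusion complex, in which STX16 is the Qa, VTI1A the Qb, STX6 the Qc and VAMP4 the R SNARE. It fuses carriers from endosomes with the trans-Golgi network. STX6 (ENSG00000135823, chr1:180972712-181023121 on GRCh38, minus strand) had 1586 counts or 80.5 CPM in SiHa siDDX24-1 and 348 counts or 19.2 CPM in SiHa siControl. It had 595 counts or 40.8 CPM in MS751 siDDX24-1 and 2083 counts or 158 CPM in MS751 siControl. The siDDX24-1 library was the higher one in SiHa and the lower one in MS751, and the highest level of all 4 was that of MS751 siControl. The log2 fold was 2.06 in SiHa (between 1.90 and 2.24), a 4.18-fold higher level, and -1.95 in MS751 (between -2.08 and -1.82), a 3.86-fold lower level. Ranked by the size of the difference between the folds of the lines, STX6 was number 10 of 11112 genes. Its opposite directions were known when the genes were chosen, so this rank is a description and not evidence that STX6 is unusual. There were 27 genes past 2-fold in opposite directions, 12 of them higher in SiHa and lower in MS751 as STX6 was.

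The levels of STX6 in the lines lay closer together with siDDX24-1 than with siControl. The log2 ratio of SiHa over MS751 was 0.98 between the siDDX24-1 libraries and -3.03 between the siControl libraries. The lines' tables were scaled separately, so such ratios between lines are rough. On GENCODE, 365 bases of STX6 exons overlap an RNA gene on the same strand that was listed for neither line.

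STX16 (ENSG00000124222, chr20:58651253-58679526, plus strand) had 2366 counts or 120 CPM in SiHa siDDX24-1 and 811 counts or 44.8 CPM in SiHa siControl. In MS751 it had 246 counts or 16.9 CPM with siDDX24-1 and 348 counts or 26.3 CPM with siControl. Its log2 fold was 1.42 in SiHa (between 1.31 and 1.54) and -0.64 in MS751 (between -0.88 and -0.40), the same pair of directions as STX6 at a smaller size. The read-through gene STX16-NPEPL1 shares 1446 exon bases with STX16 and was listed for neither line, so reads from these genes cannot be told apart here.

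The partners of STX6 and STX16 did not show their pattern. VTI1A had a log2 fold of 0.01 in SiHa (792 and 723 counts, siDDX24-1 and siControl) and 0.52 in MS751 (359 and 226 counts). VAMP4 had a log2 fold of -0.26 in SiHa (280 and 308 counts) and -0.49 in MS751 (548 and 696 counts). STX10, a Qc SNARE that can take the place of STX6 in a complex with STX16, had -0.04 in SiHa and 0.30 in MS751. Among the genes listed for either line, VAPB is the nearest before STX16 on chromosome 20. Genes listed for neither line were left out, so VAPB need not be adjacent. It encodes a VAMP-associated protein of the endoplasmic reticulum and is not a SNARE. It had 1086 counts in SiHa siDDX24-1 and 2261 in SiHa siControl, a log2 fold of -1.18. In MS751 it had 1385 counts with siDDX24-1 and 612 with siControl, a log2 fold of 1.03, so VAPB had the directions of STX16 the other way round. It is named after its values were seen. The other neighbours looked at were RAB22A, with log2 folds of 0.23 in SiHa and 0.12 in MS751, GNAS, with -0.0091 and -0.47, and NPEPL1, with -0.25 in SiHa and listed for that line alone.

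**Figure D2:**
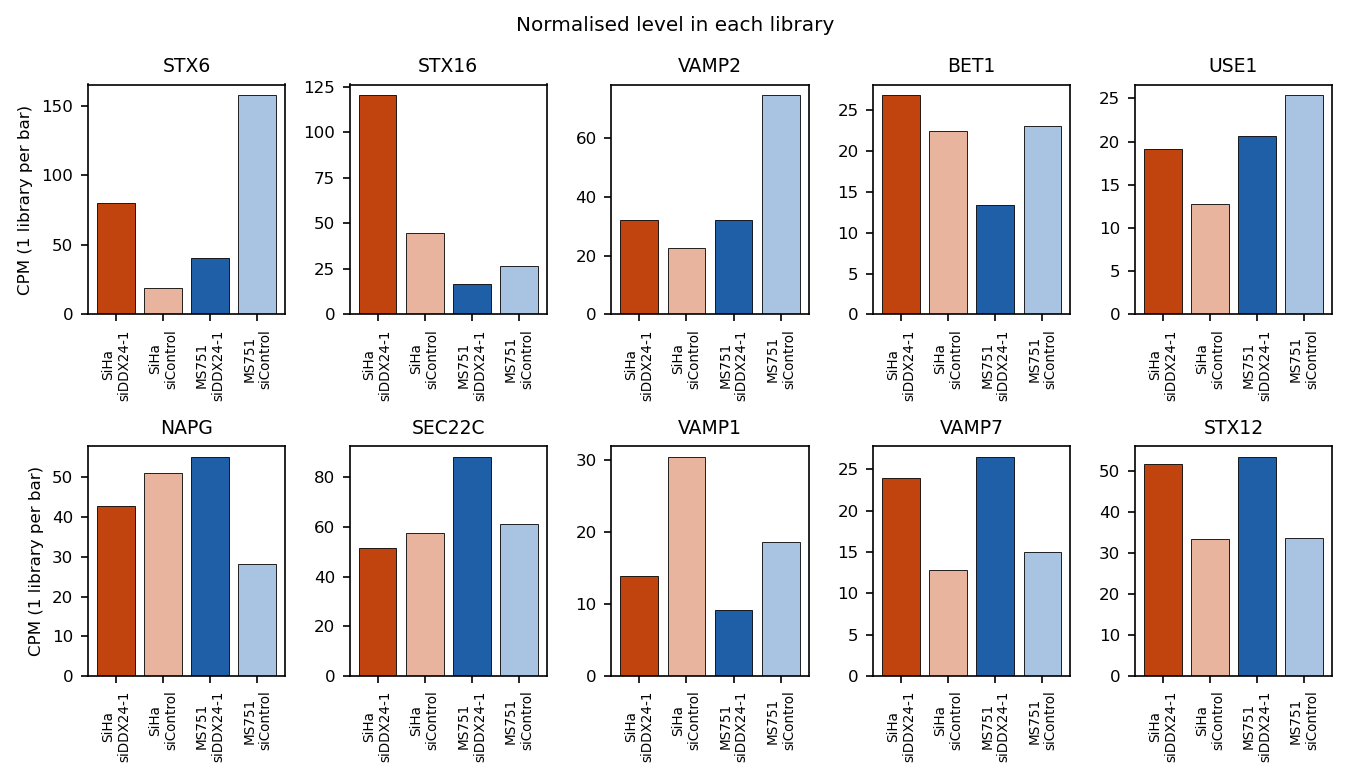
Level in CPM in each of the 4 libraries (1 bar per library) for the 7 genes whose counting intervals lie on opposite sides of 0 in the lines and for VAMP1, VAMP7 and STX12. STX6 stands at 80.5 and 19.2 CPM in SiHa siDDX24-1 and siControl and at 40.8 and 158 CPM in MS751 siDDX24-1 and siControl, while VAMP1 is lower and VAMP7 and STX12 are higher with siDDX24-1 in both lines.

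The R SNAREs included VAMP1 (ENSG00000139190, chr12:6462237-6470987, minus strand), which with VAMP2 forms the synaptobrevin pair of regulated secretion. VAMP1 had 275 counts or 14.0 CPM in SiHa siDDX24-1 and 551 counts or 30.5 CPM in SiHa siControl. It had 134 counts or 9.18 CPM in MS751 siDDX24-1 and 246 counts or 18.6 CPM in MS751 siControl. Both siDDX24-1 libraries lay below both siControl libraries. In SiHa the log2 fold was -1.12, with an interval of -1.34 to -0.91. In MS751 it was -1.01, with an interval of -1.33 to -0.71. TAPBPL overlaps VAMP1 by 339 exon bases on the other strand and had log2 folds of 0.41 in SiHa and -0.01 in MS751. The sources used here do not give whether reads were counted by strand.

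VAMP2 (ENSG00000220205, chr17:8159149-8163546, minus strand), the other synaptobrevin, differed between the lines. It had 634 counts or 32.2 CPM in SiHa siDDX24-1 and 410 counts or 22.7 CPM in SiHa siControl. It had 468 counts or 32.1 CPM in MS751 siDDX24-1 and 985 counts or 74.5 CPM in MS751 siControl. MS751 siControl stood above the other 3 libraries, and the siDDX24-1 libraries of the lines were at nearly the same level. The log2 fold was 0.51 in SiHa (between 0.32 and 0.69) and -1.21 in MS751 (between -1.38 and -1.06). On GENCODE, a protein-coding gene on the same strand shares 430 exon bases with VAMP2 and was listed for neither line. Reads from the shared bases cannot be told apart here. The 4 neighbours of VAMP2 looked at, taken among listed genes only, were below 0 in both lines. The clock gene PER1 had a log2 fold of -0.18 in SiHa and -2.40 in MS751, HES7 had -1.76 and -1.98, TMEM107 had -0.42 and -0.77, and BORCS6 had -0.25 and -0.78. They are named after their values were seen, and the share of all genes below 0 in both lines was not counted. Neighbours of STX6, BET1, USE1, SEC22C and NAPG were also looked at, and in MS751 they ran in both directions at each of these genes.

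VAMP7, the R SNARE of late endosomes and lysosome exocytosis, was higher with siDDX24-1 in both lines. It had 473 counts or 24.0 CPM in SiHa siDDX24-1 and 232 counts or 12.8 CPM in SiHa siControl. In MS751 it had 387 counts or 26.5 CPM with siDDX24-1 and 198 counts or 15.0 CPM with siControl. The log2 folds were 0.90 in SiHa and 0.82 in MS751, just under 2-fold, and both siDDX24-1 libraries lay above both siControl libraries.

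The other R SNAREs had smaller folds or few counts. VAMP3 (cellubrevin), used in recycling to the surface, had 0.34 in SiHa and 0.08 in MS751, and VAMP8 (endobrevin), used in late endosome and autophagosome fusion, had 0.02 in SiHa and -0.59 in MS751. VAMP5 rested on 26 and 37 counts in SiHa siDDX24-1 and siControl and on 65 and 106 counts in MS751 siDDX24-1 and siControl, and its log2 fold was -0.61 in SiHa, between -1.41 and 0.13, and -0.84 in MS751, between -1.32 and -0.39. SEC22B, which carries cargo between the endoplasmic reticulum and the Golgi, had -0.09 in SiHa and -0.16 in MS751, and the lipid-anchored YKT6 had 0.02 in SiHa and 0.30 in MS751. As a role, the 9 R SNAREs had a median log2 fold of 0.016 in SiHa and -0.49 in MS751, with 6 of 9 below 0 beyond counting error in MS751, where 14 of the 39 members and 36.1% of all genes were.

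Among the 10 Qa syntaxins, STX12 (syntaxin 13 of recycling endosomes) was higher with siDDX24-1 in both lines. It had 1020 counts or 51.8 CPM in SiHa siDDX24-1 and 607 counts or 33.6 CPM in SiHa siControl. It had 781 counts or 53.5 CPM in MS751 siDDX24-1 and 444 counts or 33.6 CPM in MS751 siControl. The siControl libraries of the lines were level, and so, nearly, were the siDDX24-1 libraries. The log2 fold was 0.63 in SiHa and 0.67 in MS751.

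The surface syntaxins differed among themselves. STX4, which serves constitutive and insulin-type secretion with SNAP23, had log2 folds of -0.35 in SiHa (567 and 663 counts, siDDX24-1 and siControl) and -0.64 in MS751 (679 and 957 counts). STX2, which also acts in cell division, had 0.19 in SiHa and 0.63 in MS751. The apical syntaxin STX3 had -0.20 in SiHa and 0.16 in MS751, and the neuronal syntaxin STX1A, with 134 counts in both SiHa libraries and with 40 and 48 counts in MS751 siDDX24-1 and siControl, had -0.12 and -0.40. The 3 Qbc proteins were all above 0 in both lines, with SNAP23 at 0.19 in SiHa and 0.44 in MS751, SNAP29 at 0.29 and 0.43, and SNAP47 at 0.13 and 0.17. In SiHa the counting intervals of SNAP23 and SNAP47 included 0. The share of all genes above 0 in both lines was not counted, so this is not read as a trait of the Qbc role. The 11 surface genes together had a median of -0.12 in SiHa and -0.40 in MS751, but after the trend with GC content described further on was taken out these medians were 0.023 and -0.081.

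The set for transport from the endoplasmic reticulum to the Golgi is STX5 (Qa), GOSR2 (Qb), BET1 (Qc) and SEC22B (R). BET1 (chr7:93962762-94004382, minus strand) had 527 counts or 26.8 CPM in SiHa siDDX24-1 and 406 counts or 22.4 CPM in SiHa siControl, against 196 counts or 13.4 CPM in MS751 siDDX24-1 and 304 counts or 23.0 CPM in MS751 siControl. The siControl libraries were level and the siDDX24-1 libraries lay on either side of them. Its log2 fold was 0.25 in SiHa (between 0.06 and 0.44) and -0.77 in MS751 (between -1.04 and -0.51). STX5 had 0.05 in SiHa and -0.22 in MS751, and GOSR2 had 0.33 and 0.06. In the set for transport within the Golgi, GOSR1 (Qb) had 0.11 in SiHa and 0.31 in MS751 and BET1L (Qc) had -0.15 and -0.31.

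The set for return from the Golgi to the endoplasmic reticulum is STX18 (Qa), BNIP1 (Qb), USE1 (Qc) and SEC22B. STX18 was above 0 in both lines, with log2 folds of 0.26 in SiHa and 0.66 in MS751. USE1 (chr19:17215346-17219829, plus strand) had 378 counts or 19.2 CPM in SiHa siDDX24-1 and 231 counts or 12.8 CPM in SiHa siControl, against 301 counts or 20.6 CPM in MS751 siDDX24-1 and 335 counts or 25.3 CPM in MS751 siControl. Its log2 fold was 0.59 in SiHa and -0.30 in MS751, and the second of these was -0.02 once the GC trend was taken out. BNIP1 had -0.05 in SiHa and -0.20 in MS751, both within counting error of 0. SEC22C (chr3:42547969-42601080, minus strand), a relative of SEC22B without the SNARE helix, had 1015 counts or 51.5 CPM in SiHa siDDX24-1 and 1045 counts or 57.8 CPM in SiHa siControl. In MS751 it had 1288 counts or 88.2 CPM with siDDX24-1 and 811 counts or 61.3 CPM with siControl. Its log2 fold was -0.16 in SiHa and 0.52 in MS751, and MS751 siDDX24-1 stood above the other 3 libraries.

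The late endosome set of STX7 (Qa), VTI1B (Qb), STX8 (Qc) and VAMP8 (R) had log2 folds between 0.02 and 0.18 in SiHa, where STX7 and VAMP8 turn below 0 when scaled by library totals. In MS751 STX7, VTI1B and STX8 lay between 0.02 and 0.08, and VAMP8 stood apart at -0.59, with 993 counts in siDDX24-1 and 1353 in siControl. In the autophagosome set, in which STX17 and SNAP29 pair with VAMP8, STX17 had 492 and 437 counts in SiHa siDDX24-1 and siControl, a log2 fold of 0.05, and 367 and 189 counts in MS751 siDDX24-1 and siControl, a log2 fold of 0.81 (between 0.56 and 1.08). STX17 and VAMP8 thus had folds of opposite sign within MS751.

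The disassembly factors were higher with siDDX24-1 in MS751. NSF, the ATPase, had 1917 counts or 97.3 CPM in SiHa siDDX24-1 and 1481 counts or 81.9 CPM in SiHa siControl, against 2080 counts or 142 CPM in MS751 siDDX24-1 and 1136 counts or 85.9 CPM in MS751 siControl. Its log2 fold was 0.25 in SiHa and 0.73 in MS751. NAPG, gamma-SNAP (chr18:10525905-10552761, plus strand), had 841 counts or 42.7 CPM in SiHa siDDX24-1 and 923 counts or 51.0 CPM in SiHa siControl, against 805 counts or 55.1 CPM in MS751 siDDX24-1 and 372 counts or 28.1 CPM in MS751 siControl. Its log2 fold was -0.26 in SiHa (between -0.39 and -0.12) and 0.97 in MS751 (between 0.79 and 1.15), the highest of the 39 in MS751. NAPA, alpha-SNAP, had 0.15 in SiHa and 0.20 in MS751. The 3 genes summed to 252 CPM in SiHa siDDX24-1 and 234 CPM in SiHa siControl, and to 256 CPM in MS751 siDDX24-1 and 165 CPM in MS751 siControl. NSF has 1 named pseudogene copy and NAPG 2, and reads that fit both could have been split between them.

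The SM proteins among the 39 were STXBP2 (Munc18-2) and STXBP3 (Munc18c, the partner of STX4). STXBP2 had 1041 and 1121 counts in SiHa siDDX24-1 and siControl, a log2 fold of -0.23, and 1308 and 1913 counts in MS751 siDDX24-1 and siControl, a log2 fold of -0.69 (between -0.79 and -0.59). STXBP3 had 0.13 in SiHa and 0.14 in MS751.

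The counting intervals lay on opposite sides of 0 in the lines for 7 of 39 members (17.9%), against 12.2% of the 11112 shared genes. STX6 is among the 7, and its directions were known when the genes were chosen, so this share is a description. STX6, STX16, VAMP2, BET1 and USE1 were above 0 in SiHa and below 0 in MS751, and SEC22C and NAPG were below 0 in SiHa and above 0 in MS751. The difference of the log2 folds, SiHa minus MS751, was 4.01 for STX6 (between 3.80 and 4.23), 2.06 for STX16 (1.80 to 2.33) and 1.72 for VAMP2 (1.48 to 1.97). It was 1.03 for BET1, 0.88 for USE1, -0.69 for SEC22C and -1.23 for NAPG. Of these 7, only STX6 and STX16 were past 1.5-fold in both lines, a count that was not made over all genes. With 1 library per group there is no spread left to test these differences against. The sign of the fold was the same in both lines for 28 of 39 members, 19 of them above 0 and 9 below 0. The same count was not made over all genes, so it is not read as a trait of the family. With library totals, STX7, STX17, VTI1A and YKT6 turn below 0 in SiHa and no longer share a sign. STX5 and VAMP8 then turn below 0 in SiHa as well and come to share one.

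**Figure D3:**
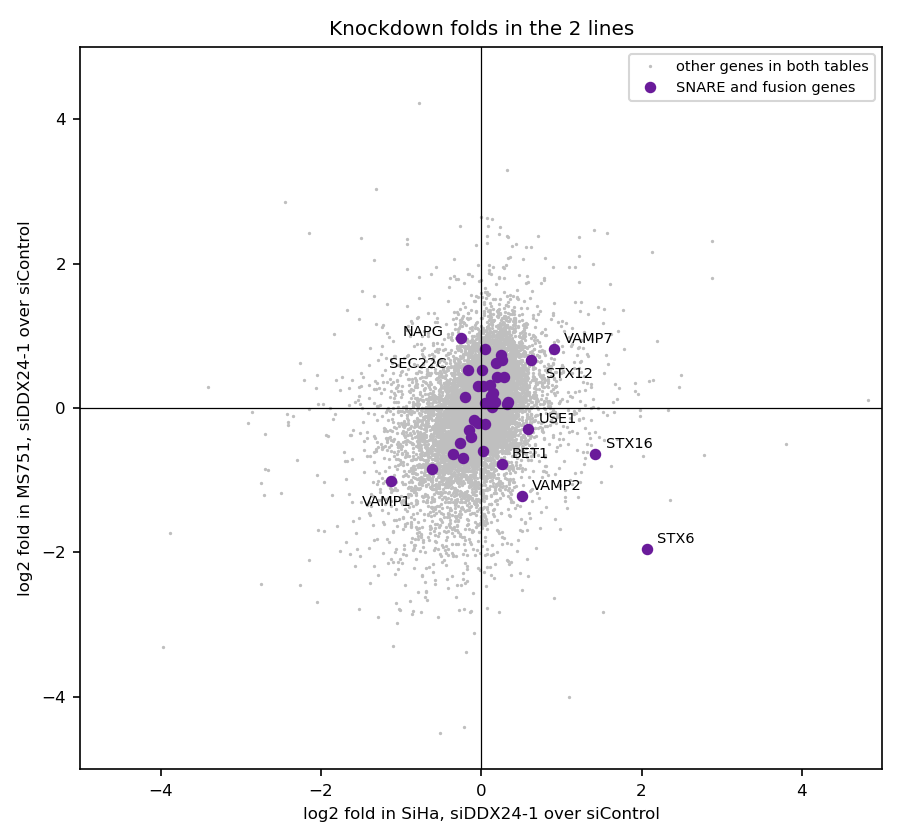
Log2 fold, siDDX24-1 over siControl, in SiHa (horizontal axis) and in MS751 (vertical axis), for the 39 genes and for the other genes listed for both lines. STX6, at 2.06 and -1.95, and STX16, at 1.42 and -0.64, lie in the lower right, while VAMP1 lies in the lower left and VAMP7 and STX12 in the upper right.

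The lines served as the repeats in a test for a shared change, with the cell line as a block. With edgeR's quasi-likelihood test and Benjamini-Hochberg adjustment over all genes, 0 of 39 members passed an adjusted p of 0.05, against 5 of 11112 genes (0.0450%). Of the members 3 had an unadjusted p below 0.05, where 12.6% of all genes did, and they were VAMP1, VAMP7 and STX12. In that edgeR test VAMP1 had a common log2 fold of -1.09 (SE 0.27, adjusted p = 0.26), VAMP7 one of 0.85 (SE 0.26, adjusted p = 0.316) and STX12 one of 0.63 (SE 0.22, adjusted p = 0.348). DESeq2 called 97 genes and limma on the folds called 0, and neither called a member, with 3 and 4 members at an unadjusted p below 0.05. The STX6 folds cancelled in this test, with a common log2 fold of 0.03 (SE 0.90). These p-values rest on the spread between SiHa and MS751 only.

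Levels of different genes were compared per length, as CPM per kilobase of the main annotated transcript. In SiHa siControl the highest were VAMP8 at 104, VAMP3 at 90.4 and NAPA at 54.8 CPM per kb, and the lowest were STX7 at 1.93, VAMP5 at 2.97 and VAMP4 at 3.30 CPM per kb. With siDDX24-1 in SiHa these genes stood at 105 for VAMP8, 114 for VAMP3, 60.6 for NAPA, 2.00 for STX7, 1.92 for VAMP5 and 2.76 for VAMP4. VAMP3 was thus the highest of them with siDDX24-1 and VAMP8 with siControl. In counts, VAMP8 had 1604 in SiHa siDDX24-1 and 1452 in SiHa siControl, and VAMP3 had 4953 and 3604, also with siDDX24-1 first. NAPA had 2196 counts in SiHa siDDX24-1 and 1823 in SiHa siControl, and STX7 had 621 and 550. In MS751 VAMP3 had 2183 counts with siDDX24-1 and 1869 with siControl, NAPA had 851 and 670, and STX7 had 1185 and 1019.

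In MS751 siControl VAMP8 at 132, STXBP2 at 77.1 and VAMP3 at 64.1 CPM per kb were the highest, and STX1A at 1.73 was the lowest. The STX7 value depends on its annotated transcript of 15791 bases, over which its reads were divided. The lines differed most in STX6, which stood at 3.97 CPM per kb in SiHa siControl and at 32.5 CPM per kb in MS751 siControl. Neighbours in these orders have no replicate spread to be told apart by.

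**Figure D4:**
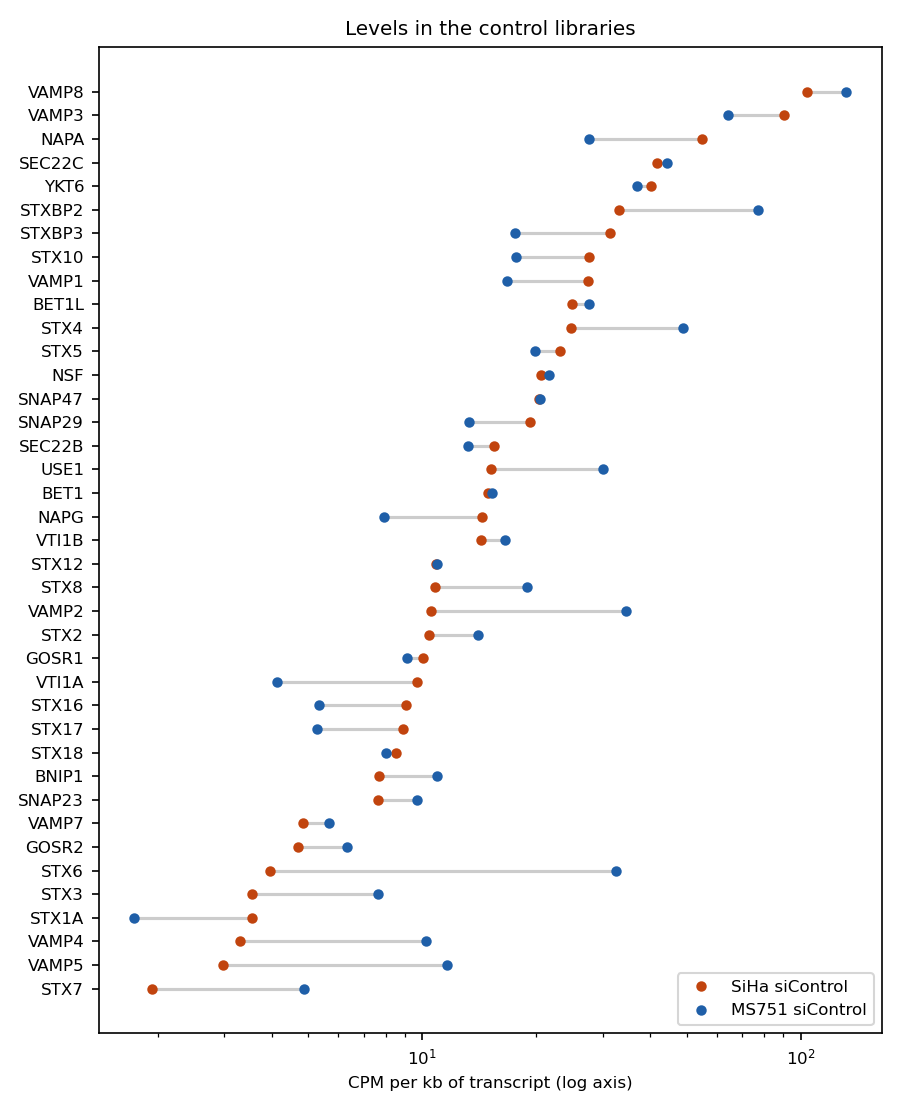
Level of each of the 39 genes in the siControl libraries, in CPM per kb of transcript on a log axis, with 1 point for SiHa and 1 for MS751 joined by a line. VAMP8 and VAMP3 are near the top in both lines, and the widest gap is that of STX6, at 3.97 in SiHa and 32.5 in MS751.

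Folds moved with the GC content of the transcript in these libraries. Over all genes the Spearman correlation of the log2 fold with GC content was -0.34 in SiHa and -0.37 in MS751, and over the 39 members it was -0.30 in both lines, as a description of points that share libraries. When the smooth trend over all genes was taken out, STX6 had a log2 fold of 2.00 in SiHa and -2.09 in MS751, STX16 had 1.39 and -0.73, VAMP2 had 0.57 and -1.13, and VAMP1 had -1.04 and -0.90. The VAMP1 fold in MS751 is then short of 2-fold. Of the 7 genes with opposite intervals, 5 remained and BET1 and USE1 did not. The part of GC content in the folds was not tested.

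**Figure D5:**
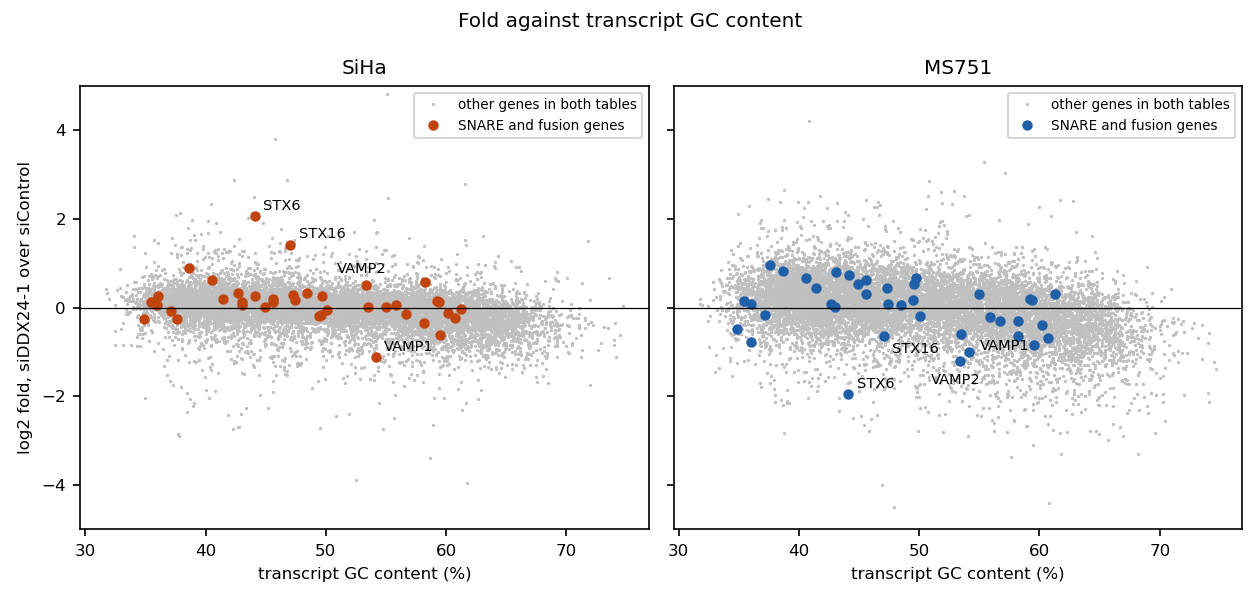
Log2 fold, siDDX24-1 over siControl, against GC content of the transcript in percent, in SiHa and in MS751, for the 39 genes and the other genes listed for both lines. The cloud slopes down with GC content in both lines, and STX6 lies far above it in SiHa, at 2.06, and far below it in MS751, at -1.95.

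Other genes of the pathway were taken from 3 lists. Of 9 further SNARE and SNARE-binding genes, 6 were compared in SiHa, with none past 2-fold. Of 22 SM proteins and regulators of release, 17 were compared in each line. In SiHa 1 of them, the calcium sensor SYT7, was at least 2-fold lower, with 300 counts in siDDX24-1 and 675 in siControl, and in MS751 SYT7 had 91 and 167 counts, log2 folds of -1.29 and -1.01. In MS751 3 others were at least 2-fold lower, the vesicle priming factor UNC13A at -1.69, the calcium-binding DOC2A at -1.36 and complexin 1 (CPLX1) at -1.02, and none was 2-fold higher in either line. That is 1 of 17 lower in SiHa, where 3.05% of all genes were, and 4 of 17 in MS751, where 8.55% were. With the GC trend taken out, UNC13A had -1.54 in MS751 and the other 3 were short of 2-fold, with DOC2A at -0.93, SYT7 at -0.67 and CPLX1 at -0.32. The medians of this list were 0.11 in SiHa and 0.19 in MS751.

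All 39 genes of the tethering complexes, which catch vesicles before the SNAREs engage, were compared in both lines. In SiHa only TGFBRAP1, a subunit of the CORVET tether of early endosomes, was at least 2-fold higher, with 945 counts in siDDX24-1 and 345 in siControl, a log2 fold of 1.33. In MS751 TGFBRAP1 had 758 counts with siDDX24-1 and 415 with siControl, a log2 fold of 0.72. In that line only ZW10, a subunit of the tether that receives Golgi vesicles at the endoplasmic reticulum with STX18, was at least 2-fold higher, with 952 counts in siDDX24-1 and 222 in siControl, a log2 fold of 1.95. ZW10 had a log2 fold of 0.89 in SiHa. No tether gene was 2-fold lower in either line. Over all genes, 1.46% were 2-fold higher and 3.05% lower in SiHa, and 3.74% higher and 8.55% lower in MS751, against 1 of 39 and 0 of 39 tether genes in each line, and the medians were 0.12 in SiHa and 0.27 in MS751.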

How the data were processed

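Total RNA of SiHa and MS751 cells was sequenced on day 2 after transfection, with 1 library per group. The authors deposited 1 table per line of raw, whole-number read counts for Ensembl genes. The tools named per the submitters' processing notes are HISAT2 2.0.4, StringTie 1.3.4d and fastp 0.23.2, on GRCh38.p12. How reads were counted, and whether by strand, is not given in the sources used. Repeated identifiers (69 in SiHa, 66 in MS751) were kept once.

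CPM with TMM factors within a line, log2 folds (prior count 1, mean level of 1 CPM or more) and the common test came from edgeR 4.0.16 in R 4.3.3. Alternatives used DESeq2 1.42.0, limma 3.58.1 and mgcv 1.9.3 (GC trend), library totals, other prior counts and filters. Intervals are exact conditional (Clopper-Pearson) at 95%. The code was tested on simulated data. GENCODE 29 gave positions, lengths and GC content.

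Full values are given for members past 2-fold, with opposite intervals, called in common, or among the 3 highest or lowest in level per length in SiHa siControl, and for VAMP7, STX12 and NSF, chosen after their values were seen. The members and lists were chosen with earlier results of these data known. For the list of further SNARE and SNARE-binding genes, the MS751 result is not reported here.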

Additional observations from a re-analysis of the deposited data

Results flagged for a closer look

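For 7 members the siDDX24-1 library lay above siControl in one line and below it in the other, beyond counting error. The difference of the log2 folds, SiHa minus MS751, was 4.01 for STX6, 2.06 for STX16, 1.72 for VAMP2, 1.03 for BET1 and 0.88 for USE1, and it was -0.69 for SEC22C and -1.23 for NAPG. The difference was not tested for any of them, since each group has 1 library. DDX24 was 6.55-fold lower in SiHa and 2.30-fold lower in MS751, so the lines also differ in how far DDX24 was lowered, and its part in these differences was not tested.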

How the results depend on the processing

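At a threshold of 1.5-fold in place of 2-fold, 5 members were higher and 2 lower in SiHa, and 7 were higher and 9 lower in MS751. The 2 members past 1.5-fold in opposite directions were STX6, chosen with this known, and STX16. The share of all genes past 1.5-fold in opposite directions was not counted. Under library totals, DESeq2 size factors, removal of the GC trend, prior counts of 0.25 and 5 and filters of none or 5 CPM, the other counts stayed within 1.5 times their value, and STX6, STX16, VAMP1, VAMP2, BET1, SEC22C, USE1 and NAPG kept their signs in both lines. The count at least 2-fold lower in MS751 fell from 3 to 2 with a prior count of 5 and with the GC trend taken out. VAMP1 was then short of 2-fold, at -0.99 and -0.90. With the GC trend taken out, the MS751 log2 fold of STX6 was -2.09, of NAPG 0.78 and of USE1 -0.02, and the MS751 median of the members was -0.023 where it had been 0.079. With library totals, 6 members with SiHa folds near 0 (STX5, STX7, STX17, VAMP8, VTI1A and YKT6) turned below 0, a range over scalings that was added after seeing the data. The common test called 0 members under each alternative, and the lowest adjusted p of a member was 0.148 with DESeq2 and 0.203 to 0.266 with the others. No replicate could be left out, as each group has 1 library. Depth limits VAMP5 and STX1A, which have at most 134 counts in any library.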
